A study of Mus musculus with 4 samples.

Results

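The promoters described here had dense CpG sequence and no called H3K27ac in adult mouse gastrocnemius, a calf muscle of the hindlimb. H3K27ac is a histone acetylation found at active promoters and enhancers. A promoter was taken where a protein-coding transcript start on the 19 autosomes had at least 50 CpG dinucleotides within 500 bp to either side and no region of any deposited peak list within 5 kb. Starts of 1 gene less than 1 kb apart were merged. The choice gave 964 bare promoters of 936 genes, out of 10507 CpG-rich promoters of 10235 genes and 26081 protein-coding promoters in all. The other 9543 CpG-rich promoters, with a region within 5 kb, are called acetylated below. Of these, 92.9% had the start inside a region, 6.26% had the nearest region at 1 to 1000 bp and 0.859% had it farther out. The absence of a region chose the bare promoters, so it is a description and is not tested.

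Muscles had been taken from B6CASTF1/J females, hybrids between C57BL/6J and CAST/EiJ, as adults of 2 months. There was 1 group with 2 biological replicates, each a pool of 2 tissue samples, and each replicate had 2 technical libraries that shared an alignment and do not count in n. The measurements were 4 lists of regions on mm10, 1 from each replicate, 1 from both pooled and 1 replicated list drawn from both. Strain, sex, age and tissue were the same in all 4 libraries, so no conditions were compared and the spread is given by the lists of the 2 replicates. The lists hold no read counts, so depth is unknown, and a bare promoter is one without a called region and not one shown to lack the mark.

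A CpG island is a stretch in which CpG, depleted from most of the mammalian genome, is kept at high density and usually free of DNA methylation. Islands lie at the starts of housekeeping genes, which are active in nearly every cell, and at the starts of many regulators of development, which are silent in most adult tissues. In embryonic and adult tissues the silent ones are known targets of Polycomb complexes, which methylate the same histone residue that H3K27ac marks. Neither DNA methylation nor Polycomb marks were measured here. Whole muscle holds fibres, satellite cells, Schwann cells, and the cells of vessels and connective tissue. A mark present in few of these cells may not give a region.

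The tissue label was compared with marker genes. A region lay within 1 kb of the start of 10 of 10 muscle fibre markers in each of the 4 lists, among them Acta1, Ckm, Myh4 and Ttn. It lay near 1 of 9 neuron markers, Stmn2, and near 0 of 4 cardiac and 0 of 3 liver markers, in each list. Among germ cell markers 1 of 4 had a region, Dazl. Of 2 Schwann cell markers, both had one in the replicate 2 list and 1 had one in the replicate 1 list.

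The 200 bases before the start of 1 bare promoter from each of 8 gene lists show what sequence had no called region. The lists are those with most bare promoters among the 26 main ones, and each promoter is the one of its list with the most CpG whose upstream bases overlap no annotated exon. The sequences are read 5′ to 3′ along the gene's strand from the C57BL/6J reference (RefSeq GRCm38.p6, mm10), not from the hybrid mice, and capitals mark each CpG. Pou4f1, a POU homeodomain factor of sensory neurons, is at chr14:104468000-104468199 on the minus strand. Kcng3, a modifier subunit of voltage-gated potassium channels, is at chr17:83631896-83632095 on the minus strand. Slc6a11, a GABA transporter, is at chr6:114131041-114131240 on the plus strand. Sfrp1, a secreted Wnt antagonist, is at chr8:23411302-23411501 on the plus strand.
Pou4f1: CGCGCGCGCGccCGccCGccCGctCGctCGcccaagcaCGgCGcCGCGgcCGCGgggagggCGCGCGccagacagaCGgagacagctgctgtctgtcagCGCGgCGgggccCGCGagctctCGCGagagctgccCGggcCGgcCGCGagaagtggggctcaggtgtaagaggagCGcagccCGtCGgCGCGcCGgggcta
Kcng3: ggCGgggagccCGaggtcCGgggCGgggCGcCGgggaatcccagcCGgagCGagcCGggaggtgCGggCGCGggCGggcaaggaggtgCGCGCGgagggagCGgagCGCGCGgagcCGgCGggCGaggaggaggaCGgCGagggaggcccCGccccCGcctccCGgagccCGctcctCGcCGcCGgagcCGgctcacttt
Slc6a11: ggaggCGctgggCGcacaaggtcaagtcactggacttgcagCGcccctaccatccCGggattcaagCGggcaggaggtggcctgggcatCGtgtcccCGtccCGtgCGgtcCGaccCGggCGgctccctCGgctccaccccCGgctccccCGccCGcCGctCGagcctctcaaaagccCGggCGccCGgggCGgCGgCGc
Sfrp1: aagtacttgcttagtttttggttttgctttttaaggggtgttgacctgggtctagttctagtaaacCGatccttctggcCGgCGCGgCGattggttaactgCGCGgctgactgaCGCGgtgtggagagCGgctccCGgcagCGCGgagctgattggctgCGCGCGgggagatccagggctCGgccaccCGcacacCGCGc
The next 4 come from the remaining lists. Dmrta2, a DM-domain factor that was matched by the germ cell list but is known for patterning the forebrain, is at chr4:109977853-109978052 on the plus strand. Bhlhe23, a neural bHLH factor, is at chr2:180776901-180777100 on the minus strand. Adgrb2, an adhesion receptor of the brain, is at chr4:129984670-129984869 on the plus strand and is shown before its outermost start. Grid1, the delta-1 glutamate receptor, is at chr14:34819908-34820107 on the plus strand.
Dmrta2: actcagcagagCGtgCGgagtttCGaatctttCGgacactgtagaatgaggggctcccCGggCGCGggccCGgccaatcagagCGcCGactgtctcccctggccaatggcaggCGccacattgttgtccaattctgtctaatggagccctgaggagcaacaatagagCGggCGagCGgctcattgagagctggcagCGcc
Bhlhe23: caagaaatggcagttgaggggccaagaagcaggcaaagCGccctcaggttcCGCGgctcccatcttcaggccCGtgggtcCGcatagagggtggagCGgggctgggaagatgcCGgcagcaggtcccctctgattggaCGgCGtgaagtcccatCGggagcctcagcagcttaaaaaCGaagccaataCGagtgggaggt
Adgrb2: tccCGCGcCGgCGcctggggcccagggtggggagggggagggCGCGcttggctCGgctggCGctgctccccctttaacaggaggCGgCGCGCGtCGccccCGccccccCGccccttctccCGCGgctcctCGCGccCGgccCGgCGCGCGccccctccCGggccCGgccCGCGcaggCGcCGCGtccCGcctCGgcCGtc
Grid1: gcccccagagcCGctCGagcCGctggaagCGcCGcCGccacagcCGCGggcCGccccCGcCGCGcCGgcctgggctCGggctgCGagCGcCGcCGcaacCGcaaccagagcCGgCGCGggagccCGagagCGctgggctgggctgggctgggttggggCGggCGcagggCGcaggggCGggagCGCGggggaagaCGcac
Shown for contrast are 2 acetylated promoters of the muscle list, chosen by the same rule. Atp2a2, the calcium pump of slow muscle and heart, is at chr5:122502226-122502425 on the minus strand. Mef2a, a muscle transcription factor, is at chr7:67372859-67373058 on the minus strand.
Atp2a2: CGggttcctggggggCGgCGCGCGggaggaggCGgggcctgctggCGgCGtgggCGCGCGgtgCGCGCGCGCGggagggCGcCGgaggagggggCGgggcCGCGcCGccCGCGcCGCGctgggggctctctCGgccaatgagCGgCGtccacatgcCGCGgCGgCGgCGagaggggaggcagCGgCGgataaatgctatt
Mef2a: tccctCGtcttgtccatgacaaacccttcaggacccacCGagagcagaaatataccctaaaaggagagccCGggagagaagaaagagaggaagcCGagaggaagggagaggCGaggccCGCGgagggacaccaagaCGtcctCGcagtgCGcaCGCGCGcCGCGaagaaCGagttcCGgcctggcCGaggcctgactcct
The bare stretches held from 12 CpG (Bhlhe23) to 37 CpG (Pou4f1), and the acetylated ones held 36 CpG (Atp2a2) and 18 CpG (Mef2a). GC content was 61% to 85% in the bare stretches, against 81% and 62% in the acetylated ones. Both kinds were chosen for high CpG counts within their lists, so CpG density in these few stretches cannot compare bare with acetylated promoters. The GC box GGGCGG was matched 3 times each in the bare Kcng3, Slc6a11 and Grid1 stretches and 3 times in the acetylated Atp2a2 stretch. The CCAAT box was matched 3 times in bare Dmrta2, 2 times each in bare Sfrp1 and Bhlhe23, and 1 time in acetylated Atp2a2.

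CpG-rich promoters without a region were a minority in every list. No region within 5 kb was found for 1231 of 10507 in the replicate 1 list (11.7%), 1064 in the replicate 2 list (10.1%) and 1009 in the pooled list (9.60%). Over all 4 lists together 964 were bare (9.17%), which is the share against which the counts below are to be read. The replicates overlapped in 1035 promoters, which were 84.1% of those bare in replicate 1 and 97.3% of those bare in replicate 2. Of these 1035, 71 had a region in the pooled or replicated list and are not among the 964. Protein-coding promoters merged from starts under the CpG minimum were bare in 8916 of 16214 cases (55.0%), and all protein-coding promoters in 9811 of 26081 cases (37.6%).

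Across all protein-coding promoters the bare share was lower at higher CpG counts and then levelled out. It was 84.9% with 0 to 9 CpG within 500 bp, 51.3% with 10 to 19 CpG, 28.9% with 30 to 39 CpG and 17.0% with 40 to 49 CpG. Above the minimum it was 12.1% with 50 to 59 CpG and between 6.18% and 10.2% in each higher bin, 6.99% among the 787 promoters with 120 CpG or more. The replicate lists gave the same shape: with 120 CpG or more, 9.02% were bare in replicate 1 and 8.13% in replicate 2. This densest bin held 55 bare promoters.

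**Figure D1:**
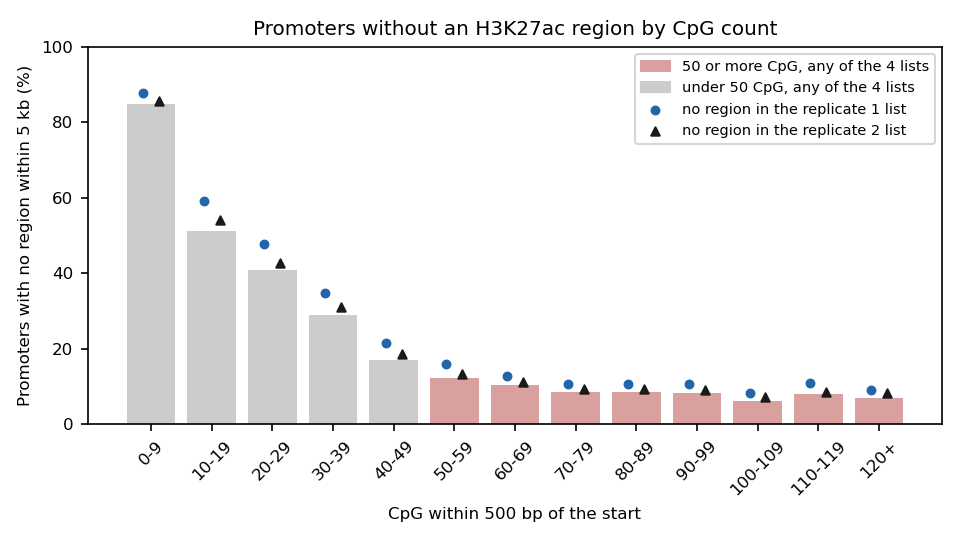
Percent of protein-coding promoters with no H3K27ac region within 5 kb (vertical axis) in bins of CpG count within 500 bp of the start (horizontal axis). Bars use all 4 lists, with the bins of the bare promoters described here in red. Circles and triangles give the replicate 1 and replicate 2 lists. The bars run down to 12.1% at 50 to 59 CpG and then stay between 6.18% and 10.2%.

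The 10 bare promoters with the most CpG were led by genes of the nervous system. Scn8a, a neuronal sodium channel, had 156 CpG within 500 bp of its start at chr15:100870952, and its nearest region lay 54824 bp away in replicate 1 and 54619 bp in replicate 2. A region of the pooled or replicated list lay closer to it, at 37708 bp. Cabp7, a calcium-binding protein of neurons, had 153 CpG, with the nearest region at 23377 bp in replicate 1 and 21871 bp in replicate 2. Sall3, a zinc finger factor of neural and limb development, had 151 CpG and distances of 52126 and 52200 bp. In these 3 the replicates placed the nearest region within about the same distance.

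Reln, which encodes the extracellular matrix protein that guides migrating neurons, had 149 CpG, and its nearest region was at 204748 bp in replicate 1 and 41882 bp in replicate 2. Rimklb had 148 CpG and distances of 21780 bp in replicate 1 and 9062 bp in replicate 2. For both the replicate 1 list placed the nearest region farther off. The other 5 were Shisa6, an auxiliary protein of glutamate receptors, with 150 CpG, Ank1 with 148, Fam169a with 144, and Bicdl1 and Kcnmb4, a subunit of calcium-activated potassium channels, with 141 each.

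At the edges of the rule, 24 bare promoters had exactly 50 CpG, among them Bhlha9, Acp5 and Cacna1e, and 119 had 50 to 54. Just outside, 33 starts with 49 CpG had no region within 5 kb, and 213 had 45 to 49. Their genes included Alx1, Cntn4 and Acp5, which also had starts that met the minimum. By distance, 16 bare promoters had a region of any list within 500 bp beyond the limit, led by Pramel1 (5042 bp), Sncb (5063 bp) and a start of Flg (5138 bp). In replicate 1 and replicate 2 the distances were 17324 and 17260 bp for Pramel1 and 14696 and 5063 bp for Sncb. For the Flg start they were 154938 and 227796 bp. On the other side 6 acetylated promoters had their nearest region within 500 bp inside it, led by Usp35 (4914 bp), Dlgap2 (4879 bp) and Pax2 (4837 bp). Pax2 stood on both sides of the limit, with a bare promoter at chr19:44757394, 6186 bp from a region, and an acetylated one upstream at chr19:44756045.

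In sequence, the bare promoters had slightly fewer CpG at the start and more CpG beyond it. Within 500 bp the median was 71 CpG (quartiles 59 and 89) in bare promoters and 76 CpG (63 and 95) in acetylated ones, a quantity the rule used. Within 2 kb the median was 143 CpG (111 and 184) in bare promoters, against 130 (107 and 163) in acetylated ones. Between 1 and 2 kb from the start it was 30 CpG (22 and 48) against 24 (18 and 32). GC content was 63.6% in bare and 62.6% in acetylated promoters, and the observed count of CpG over that expected from C and G content was 0.731 against 0.801. The quartiles of all these measures overlapped widely between bare and acetylated promoters. No test was made, since promoters are not replicates.

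The wider CpG flank lay mainly downstream. Between 1 and 2 kb downstream of the start, bare promoters had a median of 17 CpG and acetylated ones 12, and upstream the medians were 11 and 10. In the 100 bp centred 1050 bp downstream, the mean was 2.99 CpG in bare promoters and 2.14 in acetylated ones. At 2050 bp downstream it was 1.66 against 1.20. The difference in the flank was present in each bin of CpG count at the start: among promoters with 50 to 59 CpG the median at 1 to 2 kb was 26 in bare and 22 in acetylated ones, and with 120 CpG or more it was 37 against 28.

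**Figure D2:**
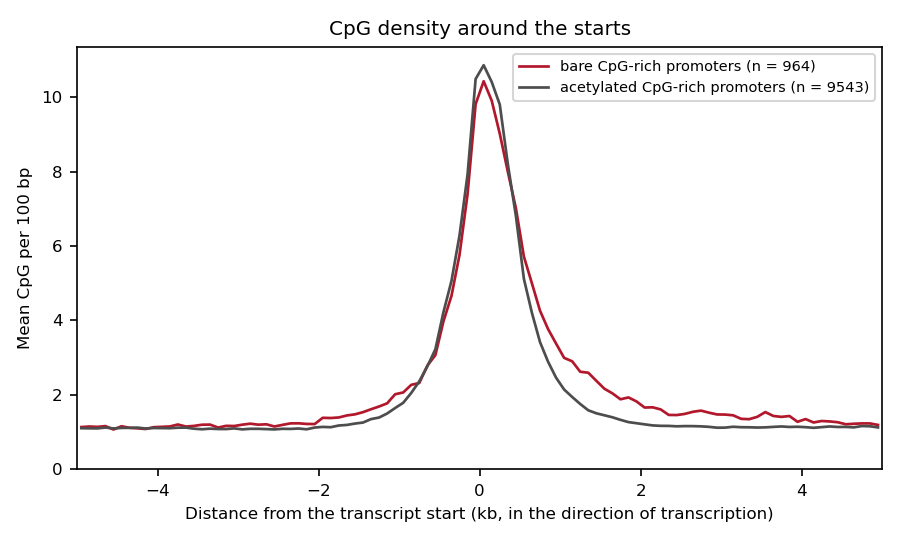
Mean number of CpG per 100 bp (vertical axis) by distance from the transcript start in kb, positive in the direction of transcription (horizontal axis). The red line is the mean of the 964 bare promoters and the grey line that of the 9543 acetylated CpG-rich promoters. At the start the red line is slightly lower, and downstream it is higher from 450 bp on, where it is at 7.02 against 6.82, with 2.99 against 2.14 at 1050 bp.

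CpG-dense stretches, runs of 200 bp bins that each hold at least 8 CpG, had the same median of 1000 bp in bare and acetylated promoters. Stretches of 2000 bp or more were found at 87 bare promoters (9.02%) and at 507 acetylated ones (5.31%). Those of 3000 bp or more were found at 17 bare promoters (1.76%) and 53 acetylated ones (0.555%). Of the 17, 6 are starts within Flg, the filaggrin gene of skin, in a stretch of up to 13000 bp that spans an internal repeat of that gene. Without Flg, 11 bare promoters (1.15%) had stretches of 3000 bp or more, and 81 (8.46%) had stretches of 2000 bp or more. The 11 included Insm1 (3400 bp), a zinc finger factor of endocrine and neural cells, Sall1 (3600 bp), a zinc finger factor of kidney and limb, Igf2bp1 (3600 bp), a fetal RNA-binding protein, and the homeodomain genes Nkx1-1 (3200 bp), Hmx3 (3200 bp), Tlx2 (3000 bp) and Lhx1 (3000 bp). In all, 7 of the 964 bare promoters belong to Flg.

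Short promoter motifs were counted from 250 bp before to 50 bp after each start, on both strands, as exact letters. The ETS site CCGGAAG, bound by factors such as GABPA, was found in 5.29% of bare promoters, 19.7% of acetylated CpG-rich ones and 10.1% of all protein-coding promoters. A YY1 site was found in 0.311%, 2.61% and 1.15%, and an NRF1 site in 0.726%, 2.35% and 1.09%, in the same order. The CCAAT box CCAAT, bound by NF-Y, was found in 28% of bare, 35% of acetylated and 36.9% of all promoters. The GC box GGGCGG, bound by SP and KLF factors, was found in 72.6% of bare, 76.9% of acetylated and 41.8% of all promoters. ETS, YY1 and NRF1 matches were thus less frequent at bare than at acetylated CpG-rich promoters, while most promoters of both kinds held a GC box.

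Further motifs differed less, or in the other direction. The CRE TGACGTCA, bound by CREB and ATF factors, was found in 2.59% of bare, 3.76% of acetylated and 2.16% of all promoters. The E-box CACGTG was found in 10.2%, 10.8% and 7.09%, and the E2F site TTTCGCGC in 0.415%, 0.775% and 0.337%, in that order. A BANP site was found in 0.726% of bare and 1.18% of acetylated promoters, and a ZNF143 site in 0% and 0.513%. The muscle E-box CAGCTG, bound by MYOD and MYOG, was found in 17.1% of bare, 13.3% of acetylated and 15.6% of all promoters. TATAAA at 40 to 20 bp before the start on the gene's strand was found in 1.45% of bare, 0.65% of acetylated and 2.12% of all promoters. The homeodomain core TAATTA was found in 2.18%, 1.29% and 5.41%, in that order. The left arm TTCAGCACC of the RE1 element, bound by the neuronal repressor REST, was found in 1.14% of bare, 0.241% of acetylated and 0.334% of all promoters. Both arms of the element, the second being GGACAG after 2 bases of any kind, within 1 kb of the start, were found in 12 bare promoters (1.24%), against 0.021% of acetylated and 0.115% of all promoters. The 12 included Grin1, the obligatory NMDA receptor subunit, Drd2, a dopamine receptor, Chga, a granin of secretory vesicles, Celf6, an RNA-binding protein, and Unc79, a subunit of a sodium leak channel complex. A match shows the letters and not that a factor was bound.

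**Figure D3:**
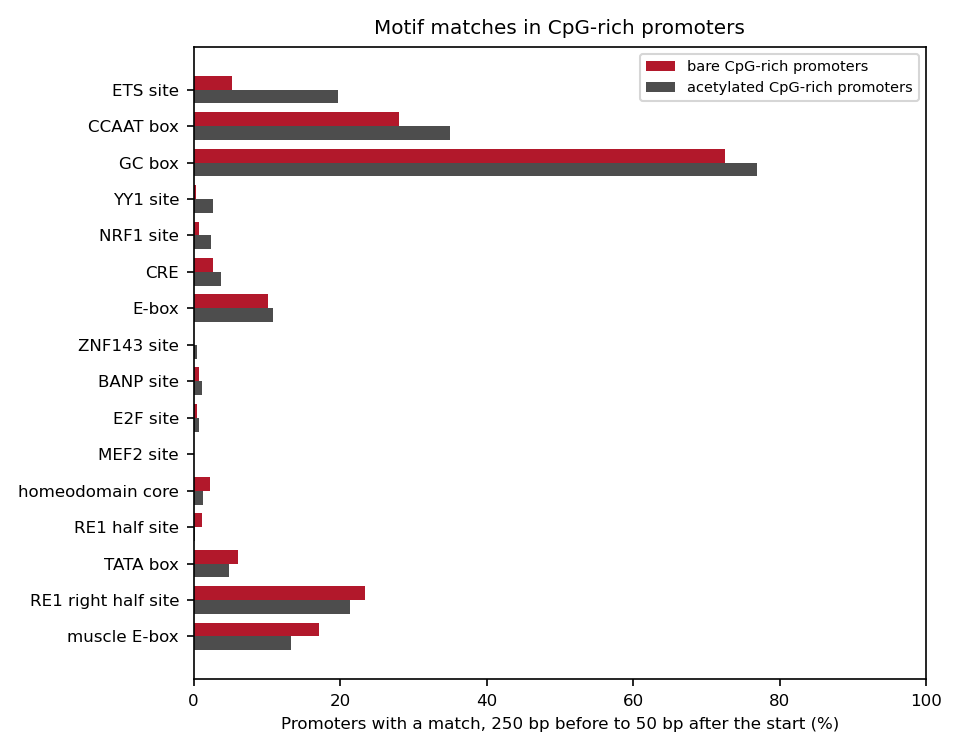
Percent of promoters with an exact match to each of 16 motifs, from 250 bp before to 50 bp after the start (horizontal axis). Red bars are the 964 bare and grey bars the 9543 acetylated CpG-rich promoters. The ETS site stands out at 5.29% of bare and 19.7% of acetylated promoters, and the muscle E-box is at 17.1% and 13.3%.

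Bare promoters were sparsely surrounded by other gene starts. The nearest start of another coding gene was at a median of 48388 bp (quartiles 19432 and 112011 bp) from bare promoters and 22151 bp (4546 and 57312 bp) from acetylated ones. A divergent coding partner, a gene of the opposite strand that starts within 1000 bp and points away, was present at 17 bare promoters (1.76%) and 1493 acetylated ones (15.6%). The rule bears on both measures, because a start within 5 kb of another gene's start inside a region could not be bare. They are a description. A long noncoding RNA started within 1 kb of 11.9% of bare and 11.1% of acetylated promoters. Genes over 100 kb held 27.7% of the bare and 15.4% of the acetylated promoters, and genes over 500 kb held 6.22% and 0.954%. Single-exon genes held 5.81% and 2.91% of them. The share of CpG-rich promoters that were bare ran over the chromosomes from 6.02% on chromosome 8 to 14.8% on chromosome 14.

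Some bare promoters lay in repeated sequence. A promoter was called repeated where at least 50% of its 31-base words within 500 bp occur again elsewhere in the genome, where short reads may not be placed. Among bare promoters 64 were repeated (6.64%), against 71 of the acetylated ones (0.744%), and 31 of the 64 carry predicted-gene symbols that begin with Gm. On chromosome 14 they were 24 of the 59 bare promoters, and without repeated promoters the bare share there was 9.70%. Over all autosomes, without repeated promoters, 900 of 10372 CpG-rich promoters were bare (8.68%). The sources used here do not say how reads in repeats were handled, and the part of read placement in these bare calls was not tested.

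Neighbouring genes were sometimes bare together. Genes with CpG-rich promoters were taken in order along each chromosome, passing over genes without one, and the 910 genes with every such promoter bare formed 741 runs, of which 610 held 1 gene, 106 held 2 genes and 25 held 3 or more. The longest, with 8 genes, lay on chromosome 14 between Nefm and Loxl2, and 5 of its genes had repeated promoters. It began with Nefm and Nefl, which encode neurofilament subunits. The next, with 6 histone genes from Hist1h2bq to Hist1h2br on chromosome 13, was repeated throughout. Without repeated sequence, runs of 4 were Cdk5r2, Fev, Cryba2 and Ihh on chromosome 1, and Nkx2-4, Nkx2-2, Pax1 and Foxa2 on chromosome 2. Fev specifies serotonin neurons and Ihh encodes Indian hedgehog, a ligand of growing bone, while Foxa2 and Nkx2-2 pattern the gut and the floor of the neural tube. Some runs of 3 joined related genes: Fgf3, Fgf4 and Fgf15 of the fibroblast growth factors, Irx1, Irx2 and Irx4 of the Iroquois factors, and Evx2, Hoxd13 and Hoxd11 at the end of the Hoxd cluster.

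Beyond the 5 kb that the rule kept clear, less of the surroundings was covered by regions at bare promoters in both replicates. Between 5 and 50 kb to either side, regions covered a median of 0 kb at bare promoters and 5.06 kb at acetylated ones in replicate 1, and 0.416 kb and 7.43 kb in replicate 2. No region in that span was found for 51.7% of bare and 11.8% of acetylated promoters in replicate 1, and for 47.1% and 7.89% in replicate 2. Between 50 and 250 kb the medians were 13.2 kb against 25.9 kb in replicate 1 and 19.6 kb against 36.1 kb in replicate 2. These come from the lists the rule used and are a description.

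The nearest region of any list lay at a median of 41889 bp from bare promoters, with quartiles of 19148 and 97704 bp. In the replicate lists the medians were 53234 bp in replicate 1 and 45909 bp in replicate 2. At one end 102 bare promoters (10.6%) had a region less than 10 kb away, and at the other 233 (24.2%) had none within 100 kb and 17 (1.76%) none within 1 Mb. The farthest were genes of neuronal adhesion. Cdh8, a cadherin of the brain, had its nearest region at 2569412 bp over all lists, 3367106 bp in replicate 1 and 3322145 bp in replicate 2. Ncam2, an adhesion molecule of olfactory axons, had it at 2269307 and 2268430 bp. A promoter of Mdga2, a regulator of synapse formation, had it at 1936852 and 1937120 bp, and Cdh7 at 1881238 and 1881172 bp.

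**Figure D4:**
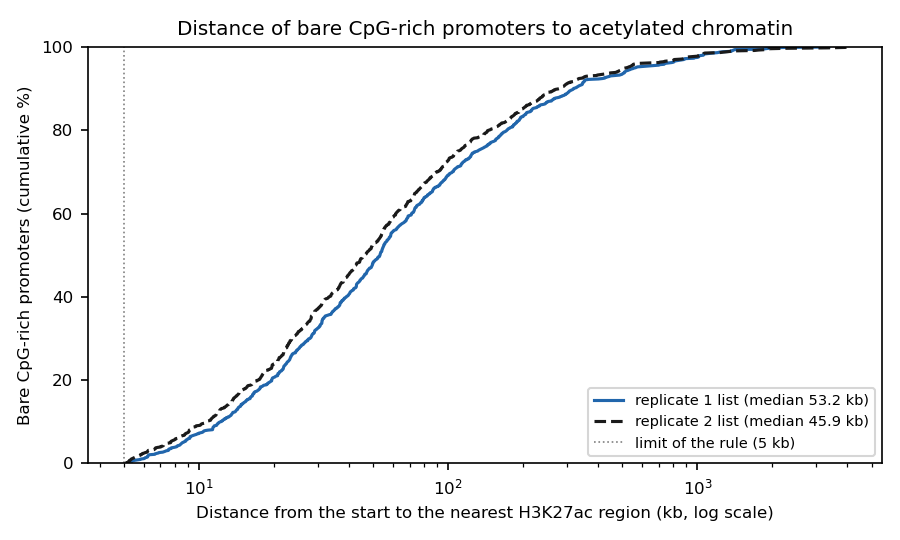
Cumulative percent of the 964 bare promoters (vertical axis) by distance in kb to the nearest H3K27ac region, on a log scale (horizontal axis). The solid line is the replicate 1 list, with a median of 53.2 kb, and the dashed line the replicate 2 list, with a median of 45.9 kb. The dotted line marks the 5 kb limit of the rule, and both curves spread over about the same range beyond it.

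Gene families were compared by the share of their CpG-rich promoters that were bare, beside 9.17% overall. Of 26 lists, 23 lay above the overall share, and the lists had been chosen with results of this kind known. At least 1 list held 270 of the 964 bare promoters (28%) and 559 of the 9543 acetylated ones (5.86%).

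Among developmental transcription factors the homeodomain genes outside the Hox clusters gave the most bare promoters, 62 of 103 (60.2%), with 68 bare in the replicate 1 list and 63 in the replicate 2 list. Pou4f1 (125 CpG), Irx2 (124), Nkx1-1 (118) and Barhl2 (116), factors of sensory neurons, limb and neural tissue, led the bare ones. Irx2 had its nearest region at 493815 bp in replicate 1 and 493702 bp in replicate 2. Acetylated members of the list included Pbx3 (147 CpG), a cofactor of Hox proteins, and Pitx1, which gives the hindlimb its identity. Satb1 was acetylated by a region at 197 bp in replicate 2, but its nearest region in replicate 1 was at 18738 bp.

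PAX factors were bare at 5 of 7 promoters (71.4%) in both replicates. With a CpG minimum of 75, 1 PAX promoter was left and it was not bare. Pax6, a regulator of eye and brain, had 73 CpG, with the nearest region at 138928 bp in replicate 1 and 138687 bp in replicate 2. Pax3, which marks embryonic muscle precursors, had 64 CpG and distances of 227635 and 226895 bp. Pax7, the factor of adult satellite cells, had 78 CpG and its start lay inside a region in both replicates. Pax7 was thus acetylated and Pax3 bare in whole muscle, in which satellite cells were not separated from the other cells.

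Hox genes were bare at 6 of 24 promoters (25%) in each replicate, namely Hoxd13, Hoxd11, Hoxd1, Hoxb9, Hoxc13 and Hoxc12. The share moved with the rule, to 12.5% with a 10 kb window and to 55.6% (5 of 9) with a CpG minimum of 75. Hoxd13, a factor of digits, had 118 CpG and its nearest region at 21696 bp in replicate 1 and 21194 bp in replicate 2. Hoxd8 (147 CpG), in the same cluster, had its start inside a region in both. The other 18 were acetylated, among them Hoxa9, Hoxa10 and Hoxa11. Bare Hox promoters had a median distance of 10472 bp to a region, short beside the 52470 bp of the other bare homeodomain promoters.

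Bare promoters were 14 of 36 of the bHLH factors (38.9%), 11 of 34 of the forkhead factors (32.4%), 9 of 30 of the GATA, ZIC and related zinc finger factors (30%), 4 of 14 of the SOX factors (28.6%) and 2 of 9 of the T-box factors (22.2%), or 0 of 4 with a CpG minimum of 75. In the replicate 1 list 18 bHLH, 14 forkhead and 5 SOX promoters were bare, and in the replicate 2 list 15, 12 and 4. The zinc finger and T-box counts were the same in each replicate list. The bHLH group was led by Bhlhe23 (99 CpG), Neurog1 (89), Ascl2 (87) and Neurog2 (84), of which Neurog1 and Neurog2 drive the making of neurons. Forkhead members were Foxf2 (104 CpG) and Foxa1 (96), a pioneer factor of endoderm, while Foxk2 (149) and Foxj3 (137) were acetylated. Sox2 (97 CpG), a factor of neural stem cells, had its nearest region at 437943 bp in replicate 1 and 11736 bp in replicate 2. Npas3 (128 CpG) was acetylated in replicate 2, with its start inside a region, but had no region within 218942 bp in replicate 1. For both genes 1 replicate alone set the distance.

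Signalling ligands were bare at 19 of 55 promoters (34.5%), 23 in the replicate 1 list and 19 in the replicate 2 list. Wnt7b (113 CpG) and Ihh (101), secreted morphogens, had regions at 18070 bp and 54243 bp in replicate 1 and at 18108 bp and 54180 bp in replicate 2. Sfrp1 (103 CpG), which binds Wnt proteins, had its nearest region at 153776 bp in replicate 1 and 99155 bp in replicate 2. Fgf12, of the intracellular fibroblast growth factor group that acts on sodium channels, had 101 CpG and distances of 424575 and 394305 bp. Wnt4 (137 CpG) and Wnt9a (131) were acetylated. Retinoic acid genes were bare at 2 of 8 promoters, Cyp26a1, which degrades retinoic acid, and Crabp1, which binds it, but at 5 in the replicate 1 list and 3 in the replicate 2 list, and at 0 of 4 with a CpG minimum of 75. Aldh1a2, which makes retinoic acid, had no region within 180351 bp in replicate 1 and one at 12 bp in replicate 2.

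Receptors of glutamate, GABA and glycine, both channels and G protein-coupled ones, had the highest bare shares of the 26 lists. Glutamate receptors were bare at 13 of 15 promoters (86.7%) and GABA and glycine receptors at 8 of 10 (80%), with the same counts in each replicate. Grid1 (131 CpG) had its nearest region at 144992 bp in replicate 1 and 57767 bp in replicate 2. Grm4 (128 CpG), a metabotropic receptor, had it at 39195 and 39173 bp, and Grin1 (83 CpG) at 12838 and 12877 bp. Gabra5 (103 CpG) had it at 889136 bp in replicate 1 and 889095 bp in replicate 2. The exceptions were Grik4 and Grin3b among the glutamate receptors and the 2 promoters of Gabbr1 among the GABA receptors. Grin3b was acetylated by a region more than 3 kb from its start, at 3559 bp in replicate 1 and 3158 bp in replicate 2.

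Monoamine and muscarinic receptors were bare at 5 of 16 promoters (31.2%), at 9 in the replicate 1 list and 6 in the replicate 2 list. They were Hrh3, a histamine receptor, Htr6, a serotonin receptor, and the dopamine receptors Drd2, Drd4 and Drd5. Adrb1 (111 CpG), a beta-adrenergic receptor, was acetylated at 267 bp in replicate 1 and 233 bp in replicate 2. Nicotinic acetylcholine receptors, a list added after the bare promoters were seen, gave 4 of 5 bare. Chrna3, Chrna4, Chrna5 and Chrna7 are subunits of neuronal receptors, and their nearest regions lay at 29722 bp or more in replicate 1 and 29617 bp or more in replicate 2. Chrnb1 (51 CpG), the beta subunit of the muscle receptor, had its start inside a region in both replicates.

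Ion channel genes divided more evenly. Potassium channel subunits were bare at 24 of 53 promoters (45.3%), at 30 in the replicate 1 list and 28 in the replicate 2 list. The bare ones included Kcnmb4 (141 CpG), Kcng3 (131) and Kcnd3 (122), and the acetylated ones Kcnma1 (121). Sodium and calcium channel subunits were bare at 10 of 26 promoters (38.5%), at 12 in the replicate 1 list and 11 in the replicate 2 list. Cacng4 and Cacna1i, neuronal calcium channel subunits, were bare, while Cacna2d1 (138 CpG) and Cacna1c (130) had starts inside regions.

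Genes of the presynaptic side, with vesicle proteins and transmitter transporters, were bare at 21 of 39 promoters (53.8%), 25 in the replicate 1 list and 24 in the replicate 2 list. Rims2 (121 CpG), a scaffold of the release site, had its nearest region at 25314 bp over all lists, 84921 bp in replicate 1 and 84737 bp in replicate 2. Slc18a3, the vesicular acetylcholine transporter used by motor nerve endings, had 89 CpG and distances of 48287 and 48188 bp. Synaptic adhesion genes were bare at 14 of 30 promoters (46.7%), 19 in the replicate 1 list and 15 in the replicate 2 list. Adgrb2 (135 CpG), Adgrb1 (118), Cbln1 (118) and Dlgap3 (118) led the bare ones, while Adgrl1 (139) and Shank3 (134) were acetylated. Neuropeptides and granins were bare at 6 of 10 promoters (60%) and at 7 in each replicate list. The 6 included promoters of Vgf, Npy, Nxph1 and Chga, but 0 of the 3 promoters with 75 CpG or more were bare. Axon guidance genes were bare at 10 of 57 (17.5%), classical cadherins at 4 of 9 (44.4%) and protocadherins at 2 of 9 (22.2%), or 0 of 4 with a CpG minimum of 60. In the replicate 1 list 14 axon guidance and 6 classical cadherin promoters were bare, and in the replicate 2 list 11 and 4. In the added list of neuronal RNA-binding and cytoskeletal genes 16 of 30 were bare (53.3%), 18 in the replicate 1 list and 16 in the replicate 2 list. Crmp1 (126 CpG), Msi1 (114), Ina (101) and Rbfox3 (95) led the bare ones, while Nova1 (129) and Ptbp2 (119) had starts inside regions.

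**Figure D5:**
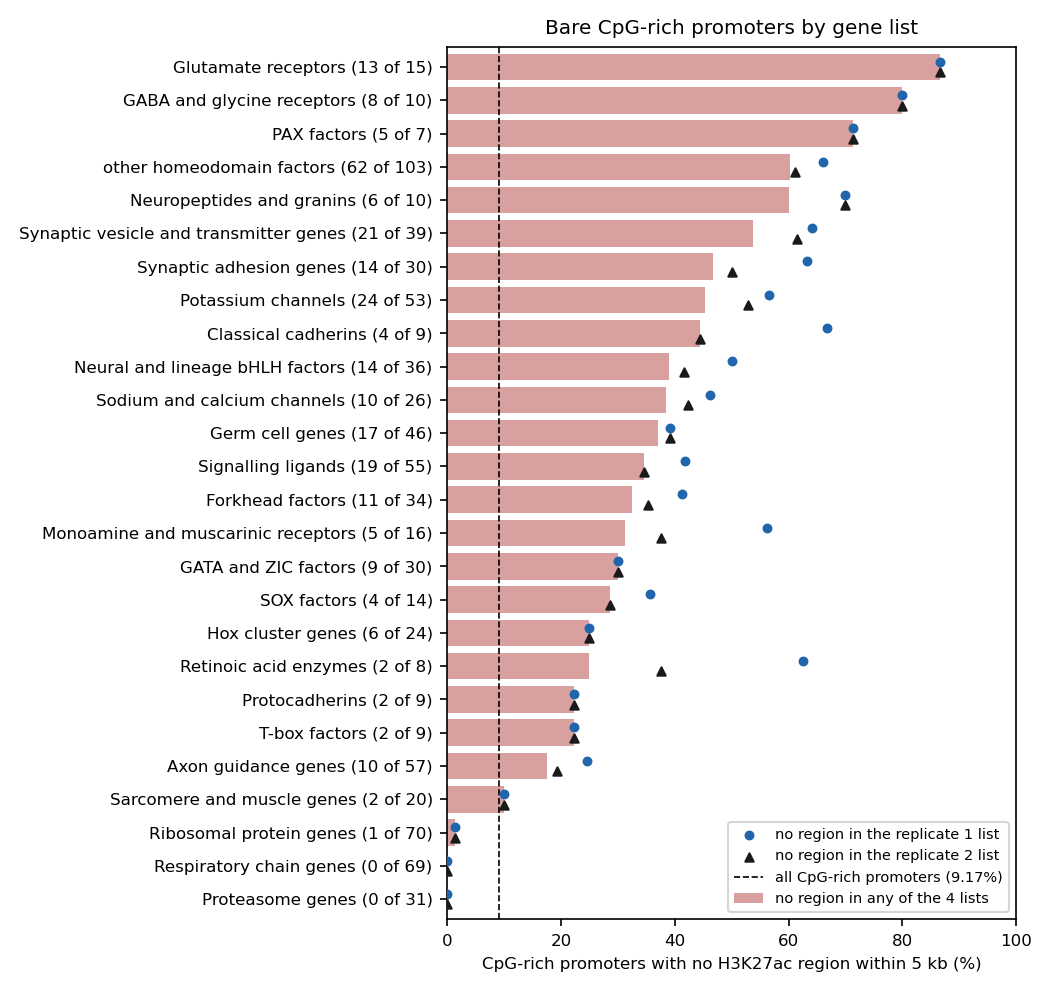
Percent of each gene list's CpG-rich promoters with no H3K27ac region within 5 kb (horizontal axis), with the number bare of the number tested beside each list. Bars use all 4 lists, circles the replicate 1 list and triangles the replicate 2 list, and the dashed line is the share over all CpG-rich promoters, 9.17%. Glutamate receptors are at the top with 86.7%, and proteasome and respiratory chain genes at the bottom with 0%.

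Germ cell genes were bare at 17 of 46 promoters (37%), 18 in each replicate list. Tdrd5 (94 CpG) and Tdrd6 (84), tudor proteins of the piRNA pathway, had their nearest regions at 72594 and 36313 bp in replicate 1 and at 71917 and 36143 bp in replicate 2. Ddx4, Mael, Sycp1 and Dmc1, which act in the germ line and in meiosis, were also bare. The list's pattern also matched Dmrt3 and Dmrta2, DM-domain factors that act in the nervous system. Dazl, a germ cell RNA-binding protein, was acetylated, as were Nanos1, Tdrd1, Tdrkh, Sycp2 and Tex14 of the same list. Spata1 (135 CpG) and Tdrd3 (125) had starts inside regions, and several symbols of the list, Tdrd3 among them, are of genes used well beyond germ cells.

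In lists that were added after the bare promoters were seen, epithelial genes were bare at 19 of 37 promoters (51.4%) in each replicate, and oncofetal and proliferation genes at 11 of 32 (34.4%). Of the latter, 14 were bare in the replicate 1 list and 11 in the replicate 2 list. Epcam (105 CpG), an adhesion molecule of epithelia, had its nearest region at 22774 bp in replicate 1 and 22715 bp in replicate 2. Dsp (93 CpG), the desmosome protein desmoplakin, had it at 53549 and 53584 bp. Tjp1 (126 CpG), a tight junction protein found in many cell types, was acetylated. Igf2bp1, Igf2bp3 and Hmga2, fetal growth genes, were bare, while Igf2bp2 and Hmga1 were acetylated. Of the proliferation genes, Mki67, Top2a, Ccna2, Ccnb1, Plk1 and Aurka were among the acetylated ones, and Mybl2, Aspm and Ccnb2 among the bare ones. Among AP-2 factors, regulators of neural crest and skin and also an added list, 4 of 6 promoters were bare. All 6 were bare in each replicate list, and the 2 acetylated ones, both of Tfap2a, had a region in the pooled or replicated list. Among R-spondins, secreted enhancers of Wnt signalling and likewise added, 4 of 4 were bare.

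Genes used in every cell had few bare promoters. Proteasome genes were bare at 0 of 31 promoters and respiratory chain genes at 0 of 69, in both replicates. Ribosomal protein genes were bare at 1 of 70 (1.43%). That 1 was Rpl10l (54 CpG, 26.9% of its words repeated), an intronless copy used in the testis, which was also counted among germ cell genes, and its nearest region was at 1110798 bp in replicate 1 and 1025162 bp in replicate 2.

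The list of sarcomere and muscle genes, which also takes in MEF2 factors, the glycolytic gene Aldoa and non-muscle myosins and actinins, was bare at 2 of 20 CpG-rich promoters (10%), close to the 9.17% overall. Both were ryanodine receptors, calcium release channels. Ryr2, the heart form, had 80 CpG and its nearest region at 30127 bp in replicate 1 and 29516 bp in replicate 2. Ryr3, with a wide low expression, had 81 CpG and distances of 223333 and 223912 bp, or 110363 bp to the nearest region of any list. Atp2a2 (155 CpG) and Mef2a (117 CpG) had starts inside regions in both replicates. Most of the fibre markers are not CpG-rich: Acta1 had 20 CpG, Ckm 13 and Tnnt3 8, and all 3 were acetylated in each list.

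A bare CpG-rich start did not always mean a gene without acetylation. All CpG-rich promoters were bare in 910 genes, and 26 genes had both bare and acetylated ones. Among 269 bare promoters of genes with another coding start at least 1 kb away, 28 had such a start inside a region in the replicated list and in both replicate lists. The acetylated start lay a median of 83234 bp away, downstream in 26 cases and upstream in 2, and was itself CpG-rich in 14. Ank1, which encodes an ankyrin with a short muscle form, had a bare start with 148 CpG at chr8:22974882 and an acetylated one 164148 bp downstream at chr8:23139030. The region there had a signal value of 41.9 in replicate 1 and 52.8 in replicate 2.

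Pde4b and Pde4d, phosphodiesterases that break down cyclic AMP, had acetylated starts 482552 and 786465 bp downstream of their bare ones. Rbfox1, a splicing regulator of neurons and muscle, had one 720708 bp downstream, with signal values of 30.1 in replicate 1 and 42.3 in replicate 2. Kcnh2, a potassium channel of heart, had a bare start with 107 CpG and an acetylated one 22013 bp downstream, with 7.34 and 9.40. Regions inside the gene but more than 5 kb from the start were present for 193 bare promoters (20%) in replicate 1 and 235 (24.4%) in replicate 2, against 46.9% and 53.5% of the acetylated ones.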

How the data were processed

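H3K27ac was profiled in 4 libraries of 1 group, and the authors deposited 4 lists of peaks on mm10. Each peak carries a signal value, deposited by the authors on a scale that no source used here states, a summit offset, and p-values and q-values, deposited as −log10. The aligner, peak caller, thresholds and use of the control library are likewise not given in the sources used here. Which list came from which replicate was read from the deposited descriptions.

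From the lists, distances from each GENCODE M21 basic protein-coding start to the nearest region were computed with Python 3.11.15, numpy 2.4.6 and pandas 2.3.3, and CpG, motifs and sequence were read from GRCm38. Overlapping functions were tested on simulated data. Coordinates count from 1. For a bare promoter the start that met the rule with the most CpG stands for it. Nothing was tested, because the lists chose the promoters and promoters are not replicates. The values of the 2 replicate lists stand for the error, and with no read counts analysed here, depth is unknown and no counting interval is given.

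The promoters, the 26 gene lists and the 16 motifs were chosen with earlier results of these data known, and 6 further lists were added after the bare promoters were seen. Genes were named by a rule (most CpG overall and in each list, farthest from a region, longest runs, nearest each limit), and other named genes were chosen after their values were seen. Alternatives changed the list, window, CpG minimum, peak threshold, merging and repeats. A few genes that this rule names are not reported here.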

Additional observations from a re-analysis of the deposited data

How the results depend on the processing

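The number of bare promoters was 964 and stayed within 1.5 times of that, between 719 and 1377, in all settings tried but one: with a CpG minimum of 75 it was 434, and 424 genes were wholly bare, since fewer starts qualify. The share, 9.17%, was 10.3% with a minimum of 40, 7.95% with 75 and 7.70% without merging starts. Leaving out 1 replicate, it was 10.1% to 11.7%, with 1064 to 1231 promoters. The CpG excess of bare promoters within 2 kb, 13 CpG in the median, kept its direction but was 2 with a minimum of 40 and 17 with 75. It was 10 without merging, 11 with the replicated list alone, with peaks of −log10 q of 5 or more, with windows of 1 or 2 kb and with 1 start per gene, and 12 with the pooled list, 14 with a 10 kb window and 11 to 12 with 1 replicate left out. Leaving out repeated promoters, an alternative chosen after seeing the data, gave 14. Of the 26 gene lists, at least 25 stayed on their side of the overall share in each setting other than the minimum of 75, where 21 did. At 75 the shares were 0% for PAX factors (0 of 1), neuropeptides (0 of 3), T-box factors (0 of 4), retinoic acid genes (0 of 4) and protocadherins (0 of 2, and 0 of 4 at 60), since few of their promoters qualify. The muscle list, at 10%, was below the overall share with the replicated list, either replicate alone or the stricter peaks, and at 7.69% with a minimum of 40. It rose to 11.8% (2 of 17) with a minimum of 60 and 20% (2 of 10) with 75. All CpG-rich promoters were at 8.49% and 7.95% there. With motifs counted from 500 bp before to 500 bp after the start, the TATA box changed from 1.27 percentage points more in bare promoters to -1.50, and the MEF2 site from -0.001 to 0.122. The cause of these changes was not tested. No paired analysis was possible because there was 1 group and no test.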
